A study of Homo sapiens with 35 samples.

Results

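The p52 binding sites of TWEAK-treated U-87 MG cells carrying *ETS1* guide 2 were compared with those of TWEAK-treated control cells. The members were all peaks in the 4 deposited p52 lists of these cells, 2 replicate libraries per group. Overlapping peaks (1 bp or more) were joined into 12842 sites, of 13354 sites found over all 8 p52 libraries of the series. A site was called lost when both control libraries and neither guide 2 library held a peak, and kept when all 4 libraries held one. It was called gained when both guide 2 libraries and neither control library held a peak. By these rules 444 of the 2940 sites of both control libraries were lost (15.1%, exact 95% binomial interval 13.8 to 16.4), and 2160 were kept (73.5%). Another 336 had a peak in 1 guide 2 library, and 58 of the 3019 sites of both guide 2 libraries were gained (1.92%). A further 801 sites of both guide 2 libraries had a peak in 1 control library, and 9043 sites had a peak in at most 1 library of each group.

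The established line U-87 MG derives from a human glioblastoma. All 4 libraries came from serum-starved cells given 10 ng/ml of TWEAK for 48 h. The controls were CRISPR control cells, and the *ETS1* knockdown (KD) cells carried a lentiCRISPRv2 construct with guide 2, introduced by lentivirus with antibiotic selection. No clone was named in the methods, and these samples hold neither RNA-seq nor ETS1 ChIP-seq labelled as guide 2, so the KD could not be checked in the cells that gave the peaks. Nothing in the labels says that replicates came from separate cultures, so the spread between them may be technical.

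p52 is a DNA-binding subunit of NF-κB. In the non-canonical pathway, ligands such as TWEAK stabilise the kinase NIK, which leads to processing of p100, the product of *NFKB2*, into p52. p52 acts with RelB and other partners at κB sequences and is linked with invasion and survival of glioma cells. ETS1 is the founding member of the ETS family, whose DNA-binding domain recognises a GGAA core, and the comparison addresses whether p52 occupancy depends on it.

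The sequences around some summits are shown for the κB matches they held. The 2 kept sites with the highest combined rank that held a κB match, 2 sites that weakened and the lost site near *GPC6* are printed, as the hg38 bases within 50 bp of the summit, with κB matches in capitals.
EGR1 kept site, chr5:138461443-138461543, + strand: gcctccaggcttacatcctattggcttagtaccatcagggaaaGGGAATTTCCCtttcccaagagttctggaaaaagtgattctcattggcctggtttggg
PLA2G6 kept site, chr22:38180197-38180297, + strand: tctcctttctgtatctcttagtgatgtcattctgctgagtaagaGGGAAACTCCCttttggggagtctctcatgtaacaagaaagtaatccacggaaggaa
PIK3R1 weaker site, chr5:68322886-68322986, + strand: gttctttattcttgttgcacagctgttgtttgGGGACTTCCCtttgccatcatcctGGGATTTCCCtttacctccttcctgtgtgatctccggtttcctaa
FURIN weaker site, chr15:90869952-90870052, + strand: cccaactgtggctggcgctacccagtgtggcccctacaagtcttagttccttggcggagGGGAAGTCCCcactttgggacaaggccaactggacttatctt
GPC6 lost site, chr13:93145366-93145466, + strand: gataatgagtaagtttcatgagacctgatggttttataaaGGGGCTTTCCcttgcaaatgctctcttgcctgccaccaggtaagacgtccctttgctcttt
These 5 windows were chosen because they held a κB consensus match and do not stand for their classes: the kept *PGK1* and RNU6-1 sites, the weaker *EXTL2* site and 3 lost sites ranked above *GPC6* held none there. Both strands of the 200 bp window at each site's strongest summit were searched. Over all 12842 sites, 59.3% held the κB consensus, against 2.00% of 12817 windows of the same length placed 5 kb away. The AP-1 sequence TGANTCA stood in 22.1% of sites and 5.7% of the displaced windows, and the ETS core AGGAAG in 24.0% and 19.99%. A match is a description of the letters and does not show that a factor was bound.

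The loss of p52 peaks was concentrated among the weakest control sites. The 2940 control sites were ordered by the mean of their relative ranks in both control lists, with peaks ranked by −log10 p, and split into 4 rank groups of 735. Of the strongest group 4 sites were lost (0.544%) and 725 were kept (98.6%). In the following groups 12 (1.63%), 89 (12.1%) and 339 (46.1%) were lost. Median fold enrichment over background at the summits of these groups was 16.9, 9.67, 7.19 and 5.25 in control replicate 1, and 35.4, 20.6, 14.4 and 8.70 in control replicate 2. Lost sites therefore had lower enrichment (medians 5.56 and 8.54) than kept sites (9.63 and 20.8) in both control libraries.

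**Figure D1:**
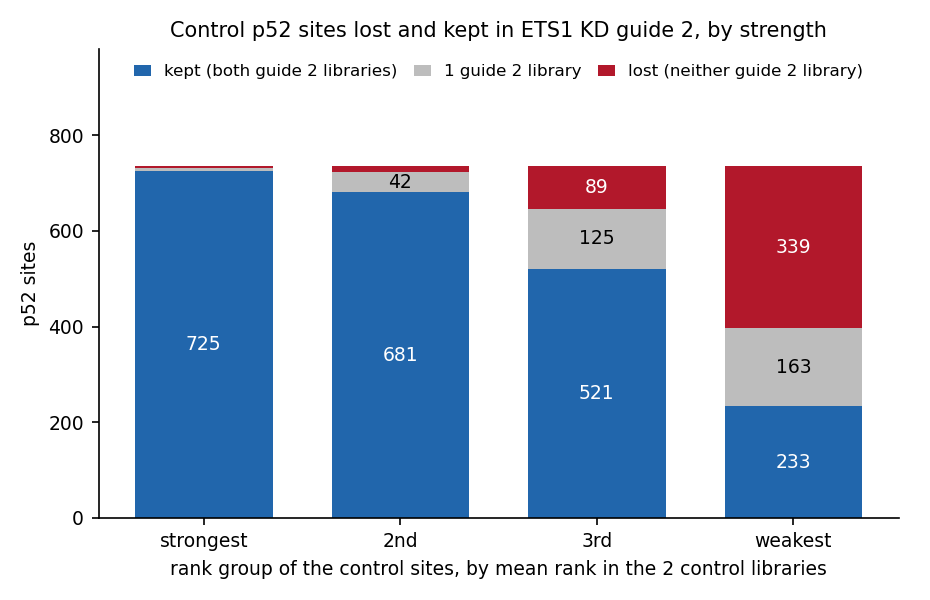
The x axis gives the 4 rank groups of control p52 sites, from strongest to weakest (735 sites each), and the y axis the number of sites that were kept, had a peak in 1 guide 2 library or were lost. Red lost segments grow from 4 sites in the strongest group to 339 in the weakest.

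The counts depended on the lengths of the lists. Control replicate 2 held 11761 peaks and control replicate 1 held 3579, while guide 2 replicates held 4252 and 3938. Depth is unknown, since the lists hold no read counts. With control replicate 1 left out, 7326 sites were lost and 108 gained, and with control replicate 2 left out, 962 and 819. Leaving out a guide 2 library gave 607 or 617 lost and 231 or 341 gained sites. When the strongest 3579 peaks of each library were used, 198 sites were lost (8.09%) and 243 were gained, and 171 of the 444 lost and 28 of the 58 gained sites kept their class. With equal numbers, 68.6% of the peaks of control replicate 1 overlapped a peak of control replicate 2, and between 63.7% and 65.9% overlapped a peak of a guide 2 library. The guide 2 replicates overlapped each other by 78.4%, and control replicate 2 overlapped them by 74.7% and 76.0%. The overlaps between the groups thus lay on both sides of the overlap between the control replicates.

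Of the 12 lost sites with the highest control rank, 6 had no protein-coding start site within 100 kb, and 0 were at a promoter, defined as the window from 1000 bp before a start to 100 bp after it. Promoters made up 16.2% of all lost sites and 20.7% of all control sites. κB matches stood at 6 of the 12, against 59.0% of all lost sites, and AP-1 and ETS core matches at 3 each, against 19.4% and 24.3%. Of the 6 with a nearby gene, the site 81.4 kb upstream of *GPC6*, a cell surface glypican (chr13:93145203-93145626, intergenic), had fold enrichments of 11.9 and 23.5 in control replicates 1 and 2. The site 19.3 kb upstream of *KCNK13*, a potassium channel gene (intron of *TDP1*), had 10.5 and 19.5. Guide 1 replicate 2 held a peak at 4 of the 12 sites, *KCNK13* (5.75) and *ME2* (9.32) among them, and replicate 1 at 1. The site in an intron of *ABLIM3*, an actin-binding protein (chr5:149156271-149156674), had 10.6 and 16.3. The remaining ones were near *HAO2* (9.87 and 17.4), near *ME2* (10.7 and 14.3), and in an intron of *ATP6V1E2*, a proton pump subunit (9.67 and 19.0). The 5 lost sites listed with fold enrichments between 1.23 and 3.29 all lay at least 416 kb from the nearest protein-coding start, on chromosomes 1, 3 and 17. How uniquely reads map at these 5 sites was not examined. All 12 remained lost with equal numbers of peaks, a stricter q, 50% overlap and assembled chromosomes. For all 444 lost sites the counts were 171, 265, 440 and 436 in that order. The 12 were chosen for high control rank, so equal numbers could not remove them. With a peak in either replicate or any library left out, all 444 stayed lost, since the rule for loss fixes this outcome. Restricting the sites to within 500 kb of a start removed 3 of the 12.

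Lost sites differed from kept sites in their sequences and surroundings, and part of these differences went with peak rank. κB matches stood at 59.0% of lost sites (54.3 to 63.6) and 75.2% of kept sites (73.3 to 77.0), a difference of -16.2 percentage points (95% interval -21.1 to -11.3). With equal numbers of peaks this difference was -4.62 points (-11.5 to 1.5), and without control replicate 2 it was -43.0 points. In the third rank group of control sites, 69.7% of lost and 67.2% of kept sites held a match, and in the weakest group 56.0% and 68.2%. AP-1 matches stood at 19.4% of lost and 25.05% of kept sites, but in the third rank group the order was the other way, with 31.5% of lost (22.0 to 42.2) and 18.4% of kept sites (15.2 to 22.0). The AP-1 difference was -2.12 points with equal numbers (-7.86 to 4.54), -1.37 in the weakest group (-7.83 to 4.75) and -14.3 without control replicate 2. ETS core matches stood at 24.3% of lost sites (20.4 to 28.6) and 24.0% of kept sites (22.2 to 25.8), a difference of 0.34 points (-3.85 to 4.89). With equal numbers it was 6.03 points (-0.21 to 13.0), and in the third rank group 31.5% of lost and 22.5% of kept sites held the ETS core. Promoters made up 16.2% of lost and 22.2% of kept sites, a difference of -6.01 points (-9.62 to -1.92). It was -2.93 points with equal numbers (-8.15 to 3.37) and -4.11 with a wider promoter window (-8.47 to 0.58), and both intervals include 0. Without control replicate 2 it was -12.4 points.

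Overlap with ETS1 peaks was more frequent at lost sites in the full lists, but the direction rested on 1 library. ETS1 peaks in both TWEAK-treated control ETS1 libraries overlapped 54 of the 444 lost sites (12.2%, 9.27 to 15.6) and 87 of the 2160 kept sites (4.03%, 3.24 to 4.94). The difference of 8.13 points (5.26 to 11.6) turned to -1.51 points when control replicate 1 was left out. It fell to 3.00 points (-2.74 to 8.36) within the weakest rank group of control sites, where 14.2% of lost and 11.2% of kept sites overlapped ETS1. Kept sites with an ETS1 overlap differed from other kept sites in median log2 fold enrichment by -0.97 and -2.69 in control. In guide 2 the differences were -1.77 and -1.50. Of the 12 lost sites of highest control rank, 3 overlapped ETS1. These had fold enrichments between 1.23 and 2.67 and also had p52 peaks in untreated cells. In the strongest 3579 peaks, the ETS1 share was 7.82% in control replicate 1 and 2.18% in control replicate 2, and both guide 2 libraries lay between them with 3.80% and 4.89%. The same lists gave ETS core shares of 24.87% and 25.01% in control and 24.0% and 23.7% in guide 2, which did not overlap between groups. E-box shares did not overlap either (11.26% and 11.74% against 11.20% and 11.12%). Those of the κB, AP-1, ETS class I, GC box, RUNX and TEAD sequences overlapped. For the ETS core and the E-box, the exact two-sided permutation test of 2 against 2 libraries gave p = 0.3333. This is the smallest p it can give, so it cannot decide whether the groups differ.

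RNA Pol II sites of both TWEAK-treated control libraries overlapped 19.6% of lost and 23.5% of kept sites, a difference of -3.92 points (-7.81 to 0.39), and -12.5 points without control replicate 2. p52 peaks of untreated control cells lay over 8.78% and 7.43% of lost sites (replicates 1 and 2) and 2.96% and 2.78% of kept sites, so peaks found without TWEAK made up a higher share of the lost ones. Lost sites were over 500 kb from any annotated start in 4.95% of cases (3.13 to 7.41), and kept sites in 0.694% (0.389 to 1.14). Within the weakest rank group of control sites the shares were 4.72% (2.72 to 7.55) and 3.43% (1.49 to 6.65), with overlapping intervals.

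**Figure D2:**
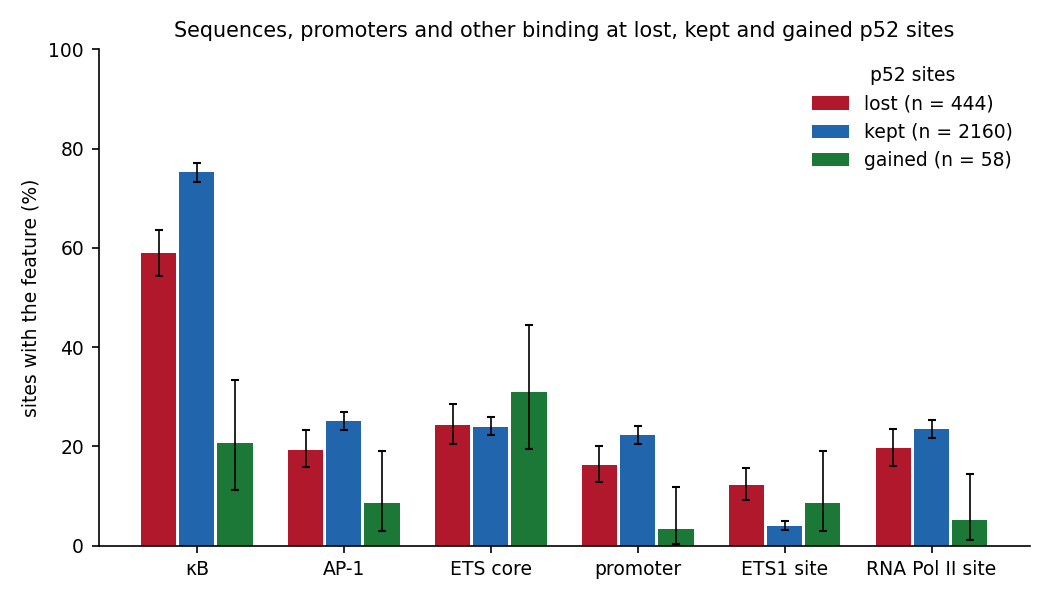
The x axis lists 6 features and the y axis gives the percentage of lost (n = 444), kept (n = 2160) and gained (n = 58) p52 sites that carry each, with exact 95% intervals. κB matches stood at 59.0%, 75.2% and 20.7% of these classes, and ETS core matches at 24.3%, 24.0% and 31.0%.

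The gained sites were few and weak, and many lay far from annotated start sites. Their median fold enrichment was 5.05 and 4.83 in the guide 2 replicates, and 24 of the 58 were over 500 kb from any annotated start (41.4%, 28.6 to 55.1). κB matches stood at 12 of them (20.7%, 11.2 to 33.4) and 2 were at a promoter (3.45%). The κB difference from kept sites of -54.5 points became -13.8 with equal numbers and -8.80 without control replicate 2. The promoter difference of -18.8 points became -9.37 and -4.56 under the same alternatives, and -8.55 without guide 2 replicate 2. Chromosome 1 held 17 of the 58, and the median GC content was 40% against 50.5% at kept sites. The gained site chr1:124745516-124745730 lay in the same stretch as the lost site chr1:124740236-124740448. How uniquely reads map at the sites far from start sites was not examined, so their gain or loss may not reflect p52 binding. Of the 10 gained sites of highest rank, 2 had a nearby gene. A site at the promoter of *MAP3K2*, a kinase of stress signalling (188 bp upstream of the start), had 8.44 and 9.001 in guide 2 replicates 1 and 2 and no control peak. A site in an intron of *PTGES*, the prostaglandin E synthase, had 8.60 and 9.70. The intergenic site chr20:23228814-23229082 had 10.1 and 8.43, and the other 7 had values between 2.22 and 6.79.

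The sites that ranked highest in all 4 libraries also had p52 peaks in guide 1 cells. Over all kept sites, 53.2% had a peak in guide 1 replicate 1 and 93.8% in replicate 2. The 12 kept sites of highest mean rank over the 4 libraries each had a peak in both guide 1 libraries. Of these 12, 9 held a κB match, against 1624 of all 2160 kept sites. At the site 3980 bp upstream of *EGR1*, an immediate-early transcription factor (chr5:138461195-138461804), fold enrichment was 86.9 and 169 in control and 263 and 263 in guide 2. At the promoter of *NFKB2*, which encodes p52 itself (chr10:102394033-102394831), it was 46.0 and 93.9 in control and 125 and 115 in guide 2. In both cases the guide 2 values lay above both control values. With each library centred on its median, the same held at 787 of the 2160 kept sites, and the reverse at 579. The centred log2 changes at *EGR1* and *NFKB2* were 1.30 and 1.05 (adjusted p = 0.0203 and 0.0243, limma). Under quantile normalisation the change at *EGR1* was -0.61 (adjusted p = 0.308, limma) and that at *NFKB2* was 0.25 (adjusted p = 0.392). At *PLA2G6*, a phospholipase gene, the intronic site chr22:38179848-38180524 had 76.2 and 130 in control and 146 and 141 in guide 2. At the site upstream of *CEMIP*, a hyaluronan-degrading protein, the values were 64.7 and 121 against 122 and 113, so the groups overlapped. The site in *STX8*, a vesicle fusion protein gene, had 72.9 and 154 against 141 and 158, and that in *F2RL1*, a protease-activated receptor gene, 50.9 and 111 against 85.4 and 89.2. None of the *PLA2G6*, *CEMIP*, *STX8* and *F2RL1* sites passed the test of relative strength (lowest adjusted p = 0.0519, limma). All 4 changes turned negative under quantile normalisation, and the one at *CEMIP* then passed (-0.75, adjusted p = 0.0415).

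Relative strength was tested at the 2160 kept sites with limma, on log2 fold enrichment centred on the median of the kept sites in each library. Only sites with a peak in all 4 libraries entered the test, so falls or rises that removed a peak were not counted. With 2 libraries per group, 211 sites were relatively stronger in guide 2 (9.77%) and 121 weaker (5.6%) at an adjusted p under 0.05, and the lowest adjusted p was 0.0203. Centring mattered because the kept sites had median fold enrichments of 9.63 and 20.8 in the control replicates and 12.6 and 12.4 in the guide 2 replicates. The count of calls rested on single libraries and on the scaling. Without control replicate 1 or guide 2 replicate 2 limma called 0 sites (729 and 515 at an unadjusted p under 0.05), without control replicate 2 it called 19, and without guide 2 replicate 1 it called 2. Without centring, 7 sites were called stronger and 0 weaker, while 61 were weaker at an unadjusted p under 0.05. Quantile normalisation gave 148 stronger and 158 weaker sites, so the balance between directions moved, and 118 of the 121 weaker and 140 of the 211 stronger sites were called in the same direction again. The log2 values had an SD of 0.79 and 0.93 across kept sites in control and of 0.99 and 1.01 in guide 2.

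**Figure D3:**
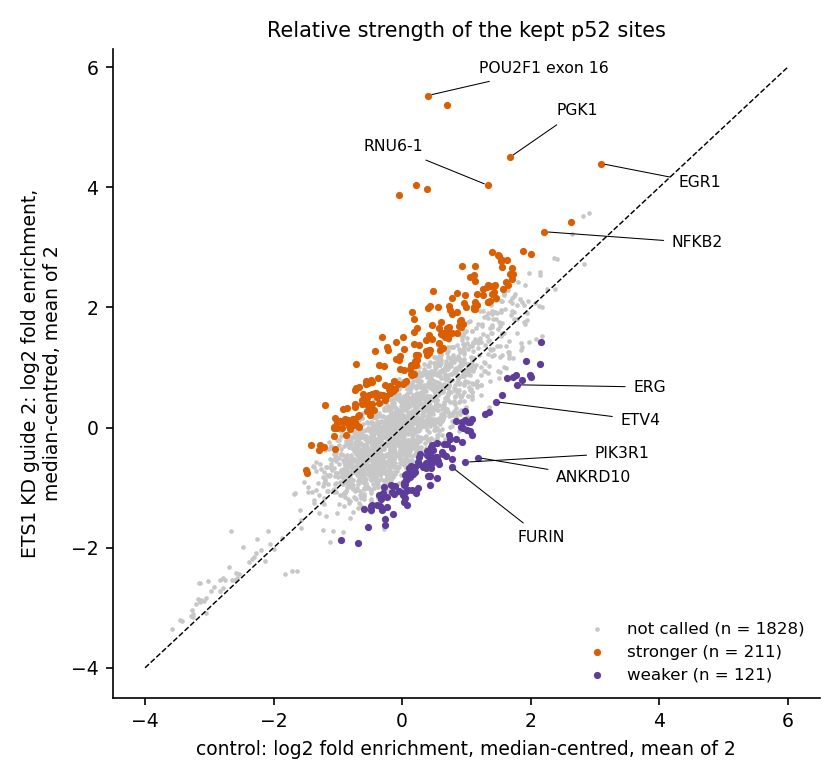
Each point is one of the 2160 kept p52 sites, with the mean of the 2 control libraries on the x axis and of the 2 guide 2 libraries on the y axis, both as median-centred log2 fold enrichment. The *POU2F1*, *PGK1* and RNU6-1 sites stand above the dashed line of equality, and *ANKRD10*, *PIK3R1* and *FURIN* below it.

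The relatively weaker sites included the one with the largest fall, an intergenic site 27.4 kb upstream of *ANKRD10* (chr13:110942222-110942726). Its fold enrichment was 19.8 and 51.9 in control and 7.10 and 11.02 in guide 2. The groups did not overlap, and 579 of the 2160 kept sites had both centred guide 2 values below both control values. The centred log2 change at the *ANKRD10* site was -1.68 (SE 0.27, adjusted p = 0.0243, limma). A site near *PIK3R1*, the regulatory subunit of PI3-kinase (chr5:68322716-68323155, 29.1 kb downstream of the start), had 18.4 and 42.8 in control and 9.37 and 7.51 in guide 2 (log2 change -1.56). A site in an intron of *FURIN*, a proprotein convertase (chr15:90869700-90870276), had 17.7 and 33.2 against 7.47 and 8.41 (-1.43). Both were also below both control values. *BNC2*, a zinc-finger gene, had an intronic site with 12.6 and 34.2 against 5.46 and 8.86 (-1.40). The promoter site of *EXTL2*, an exostosin-like glycosyltransferase, had 13.05 and 27.98 against 7.73 and 5.43 (-1.38). These 5 sites had the largest falls among the called sites, and each kept a peak in both guide 2 libraries. None of the 5 changes changed sign under quantile normalisation.

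**Figure D4:**
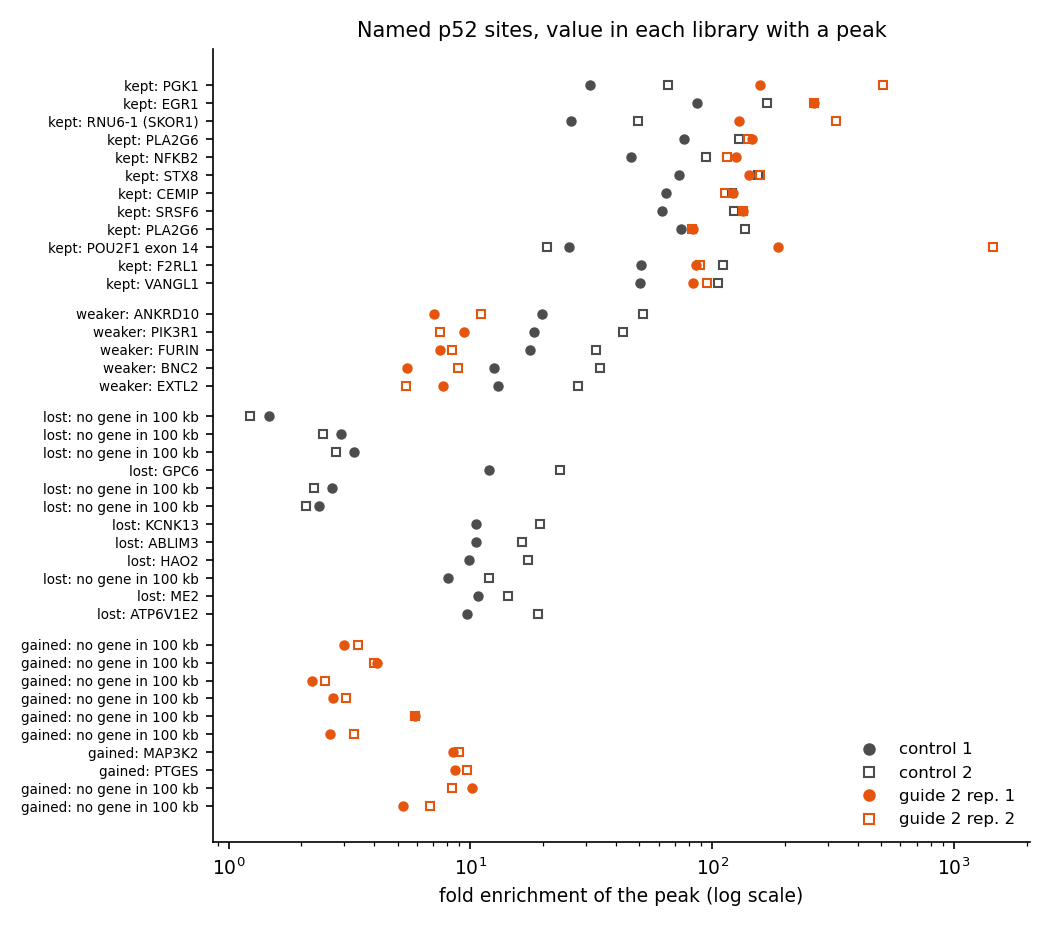
Fold enrichment on a log x axis is shown for each named kept, weaker, lost and gained site, with grey symbols for control and orange for guide 2, filled circles for replicate 1 and open squares for replicate 2. Lost sites have grey symbols only and gained sites orange only, and the weaker sites have both orange symbols below both grey ones.

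The 5 largest relative increases all lay within *POU2F1*, which encodes the ubiquitous transcription factor OCT1 (chr1:167220876-167427345). They are therefore 5 sites of 1 gene and not separate loci. The highest was at exon 16, with fold enrichments of 20.4 and 17.2 in control and 205 and 1624 in guide 2. At exon 14 the values were 25.7 and 20.7 against 187 and 1445 (log2 change 4.67, SE 0.97, adjusted p = 0.0326, limma). Both guide 2 values lay far above both control values, and they also differed several-fold from each other. All 5 peaks of guide 2 replicate 1 and all 7 of replicate 2 within the gene had their summit in an exon, although exons make up 7.76% of the gene. The same held for 5 of 5 peaks in control replicate 1 and 5 of 6 in control replicate 2. Guide 1 libraries held 3 and 5 such peaks, with highest values of 35.4 and 265, and the untreated libraries held 0.

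The promoter of *PGK1*, a glycolytic kinase (chrX:78103673-78104346), and the U6 small nuclear RNA gene RNU6-1 near *SKOR1* (chr15:67840022-67840310) moved in the same way. At *PGK1* the fold enrichment was 31.3 and 65.8 in control, 158 and 508 in guide 2 and 24.0 and 8.37 in untreated cells (log2 change 2.82, SE 0.52, adjusted p = 0.0294, limma). At RNU6-1 it was 26.04 and 49.4 in control, 129 and 324 in guide 2 and 3.83 and 5.93 in untreated cells. Guide 1 replicates 1 and 2 had 20.2 and 89.1 at *PGK1*, and 18.7 and 122 at RNU6-1. At both loci guide 1 replicate 1 lay below both control values and replicate 2 above them. The bases within 50 bp of the summits of the *PGK1* and RNU6-1 sites held no κB match. RNA of *POU2F1* and *PGK1* did not pass the test in *ETS1* KD cells (log2 changes -0.28, adjusted p = 0.648, and 0.41, adjusted p = 0.263, edgeR). What set these values was not tested, nor was whether the signal at the 3 loci came from the genomic sites. Without these 3 loci, 343 kept sites were called instead of 332.

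**Figure D5:**
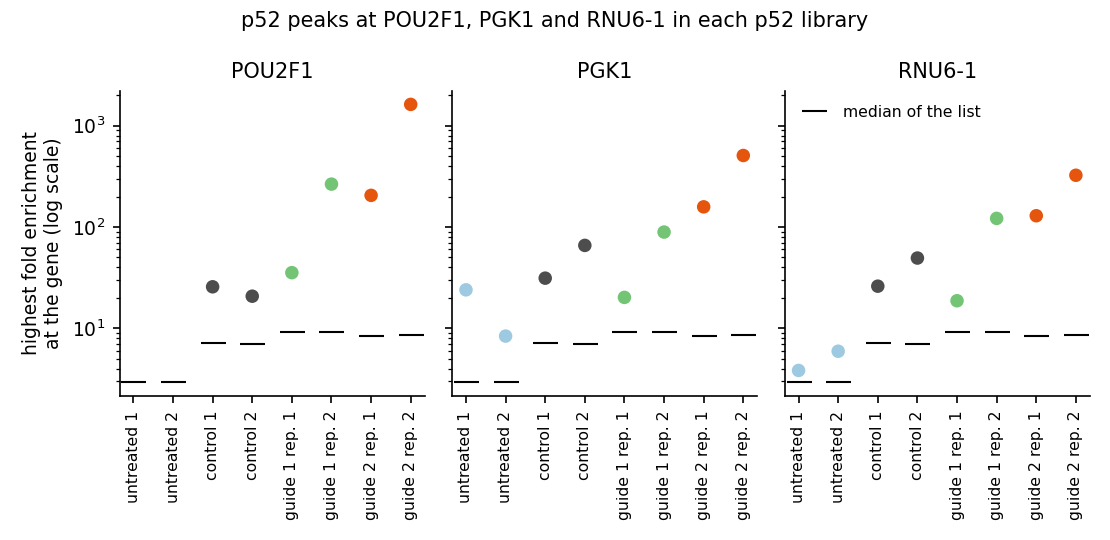
For each of the 8 p52 libraries on the x axis, points give the highest fold enrichment within *POU2F1*, *PGK1* or RNU6-1 on a log y axis, and dashes the median of the library's list. Guide 2 replicate 2 reaches 1624, 508 and 324 at these loci, while its list has a median of 8.58.

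Among genes grouped by function, most p52 sites of known κB targets and NF-κB feedback genes were kept. Of 40 such genes, 23 had a site in both control libraries nearest to them within 100 kb, with 36 sites in all. Of these 36 sites 32 were kept, 4 had a peak in 1 guide 2 library and 0 were lost. *CCL2* and *IER3* had no kept site. The strongest rank group, where 0.544% of all control sites were lost, held 15 of the 36, and the weakest, where 46.1% were lost, held 6, of which 4 were kept. The list was put together with earlier results of these data known, so its count is a description. At *TNIP1*, an A20-binding inhibitor, fold enrichment at the promoter was 30.4 and 63.6 in control and 93.2 and 80.6 in guide 2 (log2 change 1.16, adjusted p = 0.0239, limma). At *RELB*, the usual partner of p52, it was 26.3 and 50.5 against 76.4 and 54.2 (1.00). Relative increases also passed the test at the promoters of *CSF1*, a myeloid growth factor (0.86), and *TNFAIP3*, the A20 deubiquitinase (0.74). Under quantile normalisation the changes at *TNIP1*, *RELB* and *CSF1* were 0.60, 0.58 and 0.57 and no longer passed (adjusted p = 0.0653, 0.0983 and 0.0804, limma). Relative decreases passed it at *CYLD*, a deubiquitinase (-0.88), and *IRF1*, an interferon regulatory factor (-0.96). At the promoter of *NFKBIA*, which encodes IκBα, the values of 8.04 and 16.3 in control and 12.6 and 16.1 in guide 2 overlapped.

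The other lists held few control sites, so their counts are a description. Over all 2940 control sites, 73.5% were kept, 11.4% had a peak in 1 guide 2 library and 15.1% were lost. Of 12 genes of the TWEAK receptor pathway, *TRAF1* kept its 2 sites and *TRAF2* had a peak in 1 guide 2 library. ETS family genes had 9 control sites, 5 of them in the strongest rank group. Of the 9, 6 were kept, 2 had a peak in 1 guide 2 library and 1 was lost. The lost one lay 76.4 kb downstream of the start of *ETV1* (7.85 and 19.0). The sites at *ERG* (35.3 and 68.0 in control, 17.4 and 24.2 in guide 2) and upstream of *ETV4* (26.6 and 56.7 against 15.8 and 17.9, within *DHX8*) were relatively weaker, with log2 changes of -1.08 and -1.03. Of 3 control sites of AP-1 genes, those at *FOS* (4.79 and 5.0) and *JUN* (3.46 and 5.41) were lost and the one at *MAFK* was kept. All 3 lay in the weakest rank group, where 46.1% of control sites were lost, and the lost ones were outside the strongest 3579 peaks of control replicate 2. Matrix, protease and invasion genes had 12 control sites, 5 of them in the weakest rank group. Of the 12, 8 were kept, 3 had a peak in 1 guide 2 library and 1 was lost. The lost site was 55.4 kb upstream of *CD44*, a hyaluronan receptor (5.18 and 9.07), and lay outside the strongest 3579 peaks of control replicate 2. Another *CD44* site, in an intron, had 14.1 in control replicate 2 and 22.4 and 15.7 in guide 2. It had no peak in control replicate 1. The promoter site of *MMP9*, a gelatinase, had 7.23 and 20.6 in control and 7.90 in guide 2 replicate 1 with no peak in replicate 2. At *TNC*, which encodes tenascin C, the values were 26.3 and 53.3 against 57.2 and 60.2 (log2 change 0.83), but under quantile normalisation the change was 0.39 and did not pass (adjusted p = 0.165, limma). The 10 unfolded protein response genes had no site in both control libraries.

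At the gene that was targeted, the p52 sites found in both control libraries were kept. *ETS1* (chr11:128458761-128587558) had 3 kept sites. The intergenic site 42.9 kb downstream of the nearest annotated start had fold enrichments of 20.3 and 38.9 in control and 24.1 and 23.7 in guide 2. The other two had 13.5 and 24.3 against 11.1 and 11.3, and 15.96 and 38.7 against 17.7 and 15.6. None of the 3 passed the test of relative strength (lowest adjusted p = 0.111, limma). A further 2 *ETS1* sites were found in control replicate 2 alone. At *ERN1*, which encodes the stress sensor IRE1α (chr17:64039080-64130819), the promoter peak was in control replicate 2 alone (9.97), so it met no rule for loss. A second *ERN1* site had 7.15 in control replicate 2 and 9.61 and 6.83 in guide 2.

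RNA-seq of control cells and of *ETS1* KD cells whose guide is not named was used as a readout that the site classes had not used. With 3 libraries per group, edgeR called 261 of 16879 genes higher (1.55%) and 259 lower (1.53%) with TWEAK, and 43 higher (0.255%) and 191 lower (1.13%) after *ETS1* KD with TWEAK. Of 1318 tested genes nearest to a kept site, 66 rose (5.01%) and 30 fell (2.28%) with TWEAK. Of 260 nearest to a lost site, 5 rose (1.92%) and 4 fell (1.54%), close to the shares over all genes. The counts of 5 and 4 lay between 1 and 6 and between 0 and 2 when 1 library was left out. After *ETS1* KD, 8 of the genes with a kept site rose (0.607%) and 21 fell (1.59%). Of those with a lost site, 2 rose (0.769%) and 1 fell (0.385%). Leaving out TWEAK replicates 2 or 3, or untreated replicates 1 or 2, lowered the count of 66 to 39, 26, 25 and 26 in that order. Leaving out KD replicates 1 or 3 or TWEAK replicate 3 lowered the count of 21 to 12, 13 and 12. The 2 sets of shares were not tested against each other.

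The genes with a lost site that rose with TWEAK included *TNFRSF9*, the co-stimulatory receptor 4-1BB, which also had a kept site. Its CPM was 1.37, 1.65 and 1.40 untreated and 5.78, 6.09 and 10.0 with TWEAK (log2 change 2.35, SE 0.26, adjusted p = 0.000437, edgeR). *EFHD2*, a calcium-binding protein gene, rose by 0.64. *ADAMTS14*, a procollagen protease, fell by 1.92 and *MYO3B* by 1.49. After *ETS1* KD, the genes with a lost site that passed the test were *IL36B*, *C3* and *COL4A2*. The CPM of *IL36B*, an interleukin 1 family cytokine, was 354, 326 and 316 in TWEAK-treated control cells and 97.6, 115 and 87.5 in KD cells (log2 change -1.75, SE 0.16, adjusted p = 0.000157, edgeR). Complement *C3* had 32.4, 53.0 and 78.8 against 145, 111 and 175 (1.38, adjusted p = 0.0282), and the basement membrane collagen *COL4A2* changed by 0.95. Thus 1 of 260 tested genes near a lost site fell (0.385%) and 2 rose (0.769%), against 1.13% and 0.255% over all genes. Counts this small do not set these genes apart, and the guide of these KD cells is not named. *IL36B* passed the test whichever library was left out. *COL4A2* failed it whichever of the 6 libraries was left out, and *C3* failed it without KD replicates 1 or 3 or TWEAK replicates 1 or 2 (highest adjusted p = 0.15, edgeR).

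Several κB target genes with kept sites rose with TWEAK. *NFKB2* had a CPM of 49.99, 56.1 and 66.3 untreated and 234, 281 and 340 with TWEAK (log2 change 2.35), with 204, 240 and 268 after *ETS1* KD. *TRAF1* rose by 3.06, *RELB* by 1.36 and *NFKBIA* by 1.33, and none of them passed the test after *ETS1* KD. *CXCL2*, a neutrophil chemokine, rose by 2.04 with TWEAK and fell by 1.40 after *ETS1* KD (adjusted p = 0.0109, edgeR), although its promoter p52 site was kept at 20.4 and 40.1 in control and 30.5 and 35.9 in guide 2. *NFKBIZ*, an atypical IκB, rose by 0.92 with TWEAK and fell by 1.42 after KD (adjusted p = 0.0054), also with 2 kept sites. *ETS1* itself had 71.5, 71.3 and 86.1 CPM in TWEAK-treated control cells and 27.5, 33.7 and 37.0 in KD cells (-1.23, adjusted p = 0.00112).

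Guide 1 was compared with the same 2 control libraries, so the guides' values stand side by side and are not independent. Of the 2941 control sites formed with the guide 1 lists, 591 were lost (20.1%), 1170 kept (39.8%) and 1180 had a peak in 1 guide 1 library (40.1%), with 20 gained. The guide 1 lists held 1387 and 3897 peaks. For guide 2 the corresponding counts were 444, 2160, 336 and 58. Of the sites lost in guide 2, 1.58% had a peak in guide 1 replicate 1 and 27.5% in replicate 2, and of those kept 53.2% and 93.8%. The weakest rank group of control sites held 339 of the 444 lost sites. The shares were not matched for rank, so they do not show that the guides acted alike.

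The RNA-seq libraries held between 28384201 and 40192606 counts. In TWEAK-treated control cells the 5 glioma and mesenchymal genes had medians from 56.0 (*CHI3L1*) to 16020 CPM (*VIM*). Of 6 astrocyte, oligodendrocyte and neuron genes, *GFAP* had 0.218 CPM, *AQP4* and *RBFOX3* were at 0, *OLIG2* and *MBP* had 1.12 and 1.505, and *SYT1*, a synaptic vesicle gene, had 15.9. The 6 immune, endothelial and epithelial genes ranged from 0.0243 (*PTPRC*) to 1.48 CPM (*VWF*).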

How the data were processed

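Peak lists of p52, RNA Pol II and ETS1 and RNA-seq counts per gene, all from U-87 MG cells, were used. The authors trimmed, aligned to hg38 and called peaks per library with MACS2, after input subtraction and blacklist removal per the methods; the settings are not given in the sources used here. The deposited lists give fold enrichment over background as a ratio at the summit, and −log10 p and −log10 q values, read from their column order and values. The deposited RNA values are read counts per gene. Depth behind the peaks is unknown. Samples were grouped by their labels.

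Merged sites were annotated with GENCODE v44, with the nearest protein-coding start within 100 kb. Kept sites were tested with limma 3.58.1 in R 4.3.3 and RNA with edgeR 4.0.16 (quasi-likelihood, 4 groups, 12 libraries, genes kept by filterByExpr, TMM scaling), with Benjamini-Hochberg adjustment at 0.05. Shares have exact binomial and differences Newcombe 95% intervals, which cover counting error only. Named sites were the 12 lost, 12 kept and 10 gained of highest mean rank, the 5 largest called changes in each direction, all sites of *ETS1*, *NFKB2* and *ERN1*, and sites of the gene lists. The members and lists were chosen with earlier results of these data known. Each test and search was checked on simulated data. Peak-list alternatives were equal numbers, either replicate, a q threshold, 50% overlap, assembled chromosomes, other promoter windows and leaving out each library. For strength and RNA they were other scaling or tools, filters, replicate blocks and each library left out. DESeq2 1.42.0 was an alternative for RNA. Some sequences are not reported here.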

Additional observations from a re-analysis of the deposited data

How the results depend on the processing

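Of the results that answer a comparison, 89 values under the alternatives stayed close to those reported, 83 moved and 1 reversed. With a peak in either replicate, 7835 sites were lost, 4494 kept and 513 gained, and 63.5% of control sites were lost. With equal numbers of peaks the lost and gained counts were 198 and 243 (8.09% lost). A −log10 q of at least 5 gave 11.7% lost and 34 gained sites, and sites within 500 kb of a start site gave 33 gained, an alternative chosen after seeing the data. With 1 library left out, the lost count ranged from 607 to 7326, the gained count from 108 to 819 and the lost share from 20.6% to 62.4%.

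In percentage points, the promoter difference between lost and kept sites ranged from -12.4 to -2.56 with 1 library left out and was -9.96 in the weakest rank group. The promoter difference between gained and kept sites of -18.8 became -27.0 with the wider promoter window and -9.37 with equal numbers, and ranged from -19.2 to -4.56. The κB difference between lost and kept sites became -4.62 with equal numbers and ranged from -43.0 to -12.4. That between gained and kept sites of -54.5 became -13.8 and ranged from -61.8 to -8.80. The AP-1 difference ranged from -14.3 to -2.28, and the ETS core difference of 0.34 became 6.03 with equal numbers. The ETS1 overlap difference was 3.00 in the weakest rank group and ranged from -1.51 to 8.37, where it reversed without control replicate 1. The RNA Pol II difference was -10.4 in the weakest rank group and ranged from -12.5 to -3.78.

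The 332 sites with changed strength became 7 without centring and 502 with a mean-variance trend, and ranged from 0 to 19 with 1 library left out. They became 0 with −log10 p in place of fold enrichment (441 at an unadjusted p under 0.05, limma). The replicate block gave 0 calls (663 at an unadjusted p under 0.05). Same-numbered libraries of the groups did not deviate together (correlation -0.14), and pairing them crosswise, chosen after seeing the data, gave 511 calls. Quantile normalisation reversed the changes at *EGR1* (-0.61) and *SRSF6* (-0.49). The cause was not tested.

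With 1 RNA library left out, the genes near kept sites that rose with TWEAK ranged from 25 to 64 and those near lost sites from 1 to 6 (higher) and 0 to 2 (lower). Near lost sites these were 3 and 0 within 10 kb, 13 and 8 by DESeq2 and 11 and 12 without a filter, and 9 rose under the replicate block. After *ETS1* KD, the genes near kept sites that fell numbered 10 within 10 kb, 39 by DESeq2, 40 without a filter and 12 to 18 with 1 library left out. Those near lost sites that rose numbered 4 without a filter, 1 under the replicate block and 0 to 1 with 1 library left out, and those that fell 3 by DESeq2, 7 without a filter and 2 under the block. RNA replicate numbers did not pair the libraries (correlations from -0.31 to 0.49).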
